A study of Drosophila melanogaster with 6 samples.

Results

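The genes described here are the replication-independent histone variants of *Drosophila* and the histone kinase JIL-1: His2Av (CG5499), His3.3A (CG5825), His3.3B (CG8989), His4r (CG3379), cid (CG13329) and JIL-1 (CG6297). They were picked by these gene numbers, not by a rule on their values, although earlier results of these data were known. They made up 6 of the 14012 genes and 12 of the 21081 transcript rows measured. All 6 passed the filter on low values, a mean FPKM of at least 1, which left 7308 genes to be tested. FPKM counts fragments per unit of transcript length and of library depth, and the level of a gene is the sum of its transcripts.

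The RNA came from S2 cells, an embryo-derived *Drosophila* line with features of blood cells (hemocytes), grown in Schneider's medium with serum and profiled by RNA-seq. Of the 6 libraries, 2 were untreated controls, 2 came from cells given double-stranded RNA against the poly(ADP-ribose) polymerase gene (PARP1 KD), and 2 from cells given PJ34, an inhibitor of the catalytic activity of PARP and so of PARylation. The PJ34 pair differed in dose (10 and 0.3 µM, for 10 h) and the PARP1 KD pair in the amount of double-stranded RNA (100 and 500, written in ng in one label and in µg in another). Which library of a pair had which dose was not stated for the values, so each pair was treated as replicates. The labels call the controls only control, without naming a non-targeting double-stranded RNA. The study describes its RNA-seq controls as non-treated, but also names LacZ as the control of its knockdown. Every library was made from the same cell line, so the p-values measure the spread between these libraries, which here includes a difference in dose and may in part be technical.

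PARP1 is an abundant nuclear enzyme that adds chains of ADP-ribose to itself, to histones and to other chromatin proteins. In *Drosophila*, histone H4 activates PARP1 and H2A holds it inactive, and His2Av, phosphorylated by JIL-1, takes part in placing and activating it. Most histone mRNA is made in S phase from clustered, intronless genes and lacks a poly(A) tail, whereas the variant genes stand alone, give polyadenylated mRNA and are mostly not tied to S phase.

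The members lie apart in the genome. In the dm3 build, His2Av spans 3R:22692652-22694630 and His4r spans 3R:10451460-10452337, both on the plus strand. His3.3A is at 2L:5055057-5056000, His3.3B at X:9047270-9050721 on the minus strand, cid at 2R:9373105-9374135 and JIL-1 at 3L:11071848-11086239 on the minus strand. His3.3A and His3.3B both encode a protein of 136 residues, the H3.3 variant. The H4 of His4r has 103 residues, His2Av 141, the centromeric H3 of cid 225 and the kinase 1207. His2Av, His4r, cid and JIL-1 overlapped no other gene of the table, but CG11042 (X:9047407-9047860) lay inside His3.3B and the end of Nepl3 touched His3.3A, and reads of such pairs may have been split between them.

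The estimated depth of the libraries ran from 0.885 to 1.10 times that of control 1. Parp1 was at 51.6 and 29.9 FPKM in the controls, 16.7 and 10.2 in PARP1 KD, and 39.3 and 50.2 with PJ34, below both controls in both knockdown libraries (log2 change -1.51, SE 0.55, adjusted limma p 0.9996). PJ34 library 2 stood apart from the rest. Its median log2(FPKM + 1) was 0.99 for genes with transcripts of 4000 bases or more. This median was 3.86 in control 1, the highest of all, 2.86 in control 2 and 2.54 to 2.83 in the other libraries. The controls thus also differed from each other for long transcripts. The 10 hemocyte markers were all above 0 and summed to 1224 and 1515 FPKM in the controls, 1363 and 1172 in PARP1 KD, and 848 and 175 with PJ34. Outside PJ34 library 2 most of this sum was Col4a1 and vkg, which have long transcripts (6000 and 6376 bases). The part of transcript length in these sums was not tested. Sr-CI went the other way, at 0.937 and 2.50 FPKM in the controls and 33.9 and 15.0 with PJ34, and passed the test in PARP1 KD against PJ34 (-3.16, adjusted p 0.0401). He (log2 change 1.37) and eater (1.14) also had positive changes with PJ34 against control, with groups that overlapped. The other tested markers had negative changes. The controls themselves differed widely for He (1.47 and 80.5 FPKM) and Pxn (4.09 and 102 FPKM). The 8 markers found of neurons, muscle, germ line, fat body and glia summed to 4.15 and 1.07, then 0.793 and 0.726, then 3.5 and 1.27 FPKM, with elav at 3.79 in control 1 and Lsp1alpha at 0 throughout. Because the RNA is from bulk cultures, fewer cells and less RNA per cell cannot be told apart.

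The members fell into groups of very different level. His4r was the highest in every library, at 749 to 5116 FPKM, which put it within the top 0.906% of all genes. His2Av (303 to 563), His3.3B (199 to 934) and His3.3A (172 to 348) were also abundant. The centromeric cid (6.14 to 20.6 FPKM) and JIL-1 (0.731 to 12.9 FPKM) were far lower. The abundant members rested on at least 3160 estimated fragments in every library, and the fewest of all were 90.3 for JIL-1 and 135 for cid, both in PJ34 library 2.

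**Figure D1:**
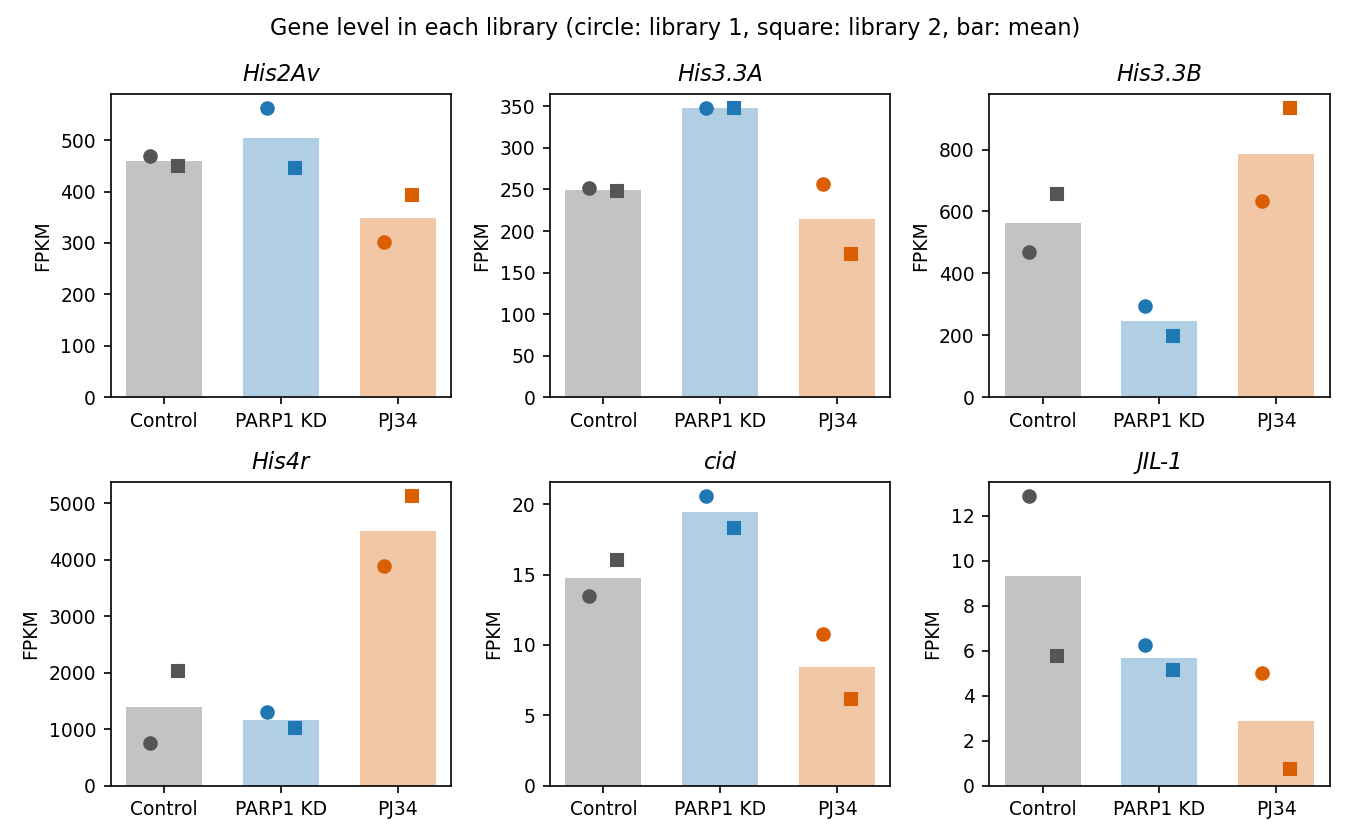
Gene level in FPKM (vertical axes, each from 0) of the 6 members in control, PARP1 KD and PJ34 cells. Points are single libraries and bars are the means of 2 libraries. His3.3B is below both controls in both PARP1 KD libraries (295 and 199 FPKM), and His4r is above both controls in both PJ34 libraries (3878 and 5116 FPKM).

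The comparison of PARP1 KD with control asks which members differ when the PARP1 transcript is lowered. The member with the smallest p was His3.3B, which was lower than both controls in both PARP1 KD libraries, while the other H3.3 gene, His3.3A, was higher in both. No member passed the test, as was so for every gene tested (0% called by limma at an adjusted p under 0.05, and 2.86% at an unadjusted p under 0.05). Groups did not overlap for 3 of the 6 members, against 45.4% of all genes. Of these, 2 were higher, against 10.5% of all genes, and 1 was lower, against 34.9%.

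His3.3B encodes H3.3, which replaces H3 in transcribed chromatin outside S phase. It was at 469 and 657 FPKM in the controls and at 295 and 199 in PARP1 KD. Both knockdown libraries were thus below both controls, and the mean was 0.439 times that of the controls. The log2 change was -1.19 (SE 0.44, 95% interval -2.16 to -0.23, n = 2 in each group), with an unadjusted limma p of 0.0204 and an adjusted p of 0.9996. Only 5.82% of the genes tested had a lower change, the median over all genes being -0.28.

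The overlapping gene CG11042 is missing from the current BDGP6 annotation and may be an old model of part of His3.3B. It lies toward the 3' end of His3.3B, and fragments of His3.3B may have been counted under it. The values of His3.3B alone may leave these fragments out. CG11042 also varied among the libraries. It stood at 3.20 and 234 FPKM in the controls, 233 and 257 in PARP1 KD, and at 9.4e-05 and 5.4e-05 with PJ34. With CG11042 added by length, His3.3B was at 470 and 733 FPKM in the controls and 371 and 282 in PARP1 KD, still without overlap, at 0.543 times the control mean (log2 change -0.86, unadjusted p 0.0772, adjusted p 0.9996). With a plain sum the controls were at 472 and 891 and PARP1 KD at 528 and 455, which overlapped, and the change was -0.40 (adjusted p 0.9996). The part of this overlap in the result was not tested beyond these sums, which were chosen after the values were seen.

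His3.3A, which encodes the same protein, was at 252 and 248 FPKM in the controls and at 348 and 348 in PARP1 KD. Both knockdown libraries were above both controls, 1.39 times on the means, with a difference of 0.48 (SE 0.40, 95% interval -0.42 to 1.37, adjusted p 0.9996). Nepl3, whose end touches this gene, was at 83.7 and 75.5 FPKM in the controls and 46.5 and 34.6 in PARP1 KD, and its part in the result was not tested. The opposite order of the genes shifted their proportions. Of the summed H3.3 FPKM, His3.3B gave 65.1% and 72.6% in the controls, 45.9% and 36.4% in PARP1 KD, and 71.2% and 84.4% with PJ34. This share does not depend on how the libraries were scaled. With CG11042 added by length it was 65.1% and 74.7%, 51.6% and 44.8%, and 71.2% and 84.4%, so the PARP1 KD libraries were the lowest either way. The share can depend on transcript length, with medians of 1528 bases for His3.3B and 848 for His3.3A. After the length trend of each library was removed, the changes in PARP1 KD were -0.96 for His3.3B and 0.41 for His3.3A. The part of length in the share was not tested further. An exact two-sided permutation test over 2 and 2 libraries cannot give a p below 0.333, and no test of the share was made.

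**Figure D2:**
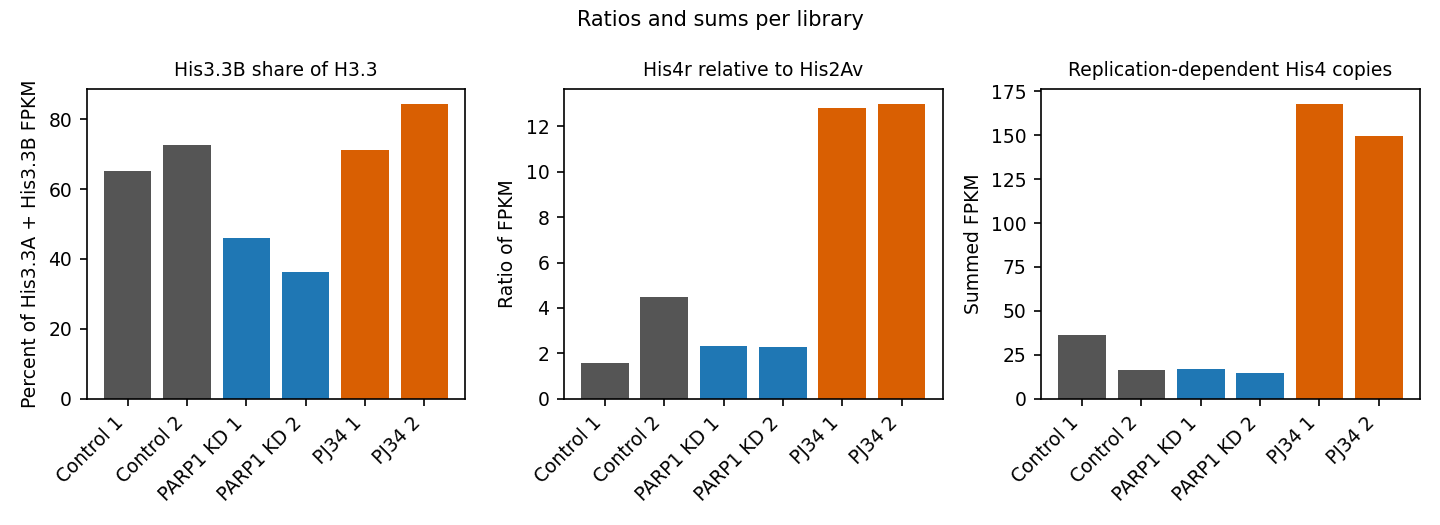
Left, share of His3.3B in the summed FPKM of both H3.3 genes (percent); middle, His4r FPKM divided by His2Av FPKM; right, summed FPKM of 22 replication-dependent His4 copies. Each bar is a single library. The His3.3B share is lowest in PARP1 KD (45.9% and 36.4%), and the His4r ratio is highest with PJ34 (12.8 and 13.0).

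His2Av, the sole H2A variant of the fly, combining the roles that H2A.Z and H2A.X have in mammals, was at 470 and 450 FPKM in the controls and 563 and 447 in PARP1 KD. The groups overlapped, and the difference was 0.12 (SE 0.40, 95% interval -0.76 to 1.01). His4r was at 749 and 2023 FPKM in the controls and 1305 and 1024 in PARP1 KD, within the range of the controls, with a difference of -0.09 (95% interval -1.28 to 1.10). The controls themselves differed 2.70 times for this gene. The sign turned with the choice of control: the change was -0.81 without control 1 and 0.63 without control 2, and median centring put it at 0.30.

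cid, the CENP-A of the fly, which marks the centromere, was at 13.5 and 16.1 FPKM in the controls and 20.6 and 18.3 in PARP1 KD. Both knockdown libraries were above both controls, with a difference of 0.38 (SE 0.61, 95% interval -0.98 to 1.73). JIL-1, which phosphorylates serine 10 of H3 in interphase and is found on active chromatin, was at 12.9 and 5.79 FPKM in the controls and 6.26 and 5.14 in PARP1 KD. The groups overlapped and the difference was -0.54 (95% interval -2.20 to 1.12). Control 1 was the library that set the control mean apart: without it the difference was -0.02, and after the length trend of each library was removed it was 0.15. The adjusted p was 0.9996 (limma) for each of these 4 genes.

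The comparison of PJ34 with control asks what follows when PARylation is inhibited. His4r was 3.25 times higher on the means with PJ34, and its libraries did not overlap with the controls. JIL-1, cid and His2Av were lower in both PJ34 libraries, although centring each library on its median gene put His2Av at 0.73 and cid at 0.36 above control, and quantile normalization put cid at 0.33. No member passed the limma test at an adjusted p under 0.05, against 0.643% of all genes, and only His4r had an unadjusted p under 0.05, against 31.1%. Groups did not overlap for 4 of 6 members, close to the 67.2% of all genes, with 1 higher (13.1% of all genes) and 3 lower (54.1%).

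The levels of His4r, whose mRNA supplies H4 outside S phase, were 3878 and 5116 FPKM with PJ34 against 749 and 2023 in the controls. The lower PJ34 library was 1.92 times the higher control. The log2 change was 1.85 (SE 0.54, 95% interval 0.66 to 3.05), with an unadjusted p of 0.00597 and an adjusted p of 0.116 (limma). Over the alternative settings the change ran from 1.14 to 2.99 and the adjusted p from 0.00129 to 0.456. It passed the threshold without control 2 (2.57, adjusted p 0.00783), as did 365 of the 7308 genes, and without PJ34 library 1 (2.05, adjusted p 0.00129), as did 5106 genes. In these fits the lone library is assumed to vary like the others. Without PJ34 library 2 it was 1.65 (adjusted p 0.0856), and without control 1 it was 1.14 (adjusted p 0.456). Of all genes tested, 98.1% had a lower change.

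Transcript length moved with the PJ34 values over all genes. The median log2 change was 0.10 for genes of 500 to 1000 bases and -1.44 for those of 4000 bases or more, with -1.08 over all genes. His4r transcripts are short, and after the length trend of each library was removed its change was 1.54 (adjusted p 0.0982, with 3.37% of genes called under this setting). The median change of the 8 tested hemocyte markers was -1.60 with PJ34, and -0.36 after the length trend was removed. The part of the lower hemocyte marker sums with PJ34 in these values was not tested.

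The replication-dependent H4 genes, which encode the same protein in the histone cluster, were also highest with PJ34. The 22 His4 copies summed to 36.5 and 16.1 FPKM in the controls, 16.8 and 14.7 in PARP1 KD, and 168 and 150 with PJ34. The PJ34 libraries were far above the other 4. This sum was 4.87 and 0.798 per 100 of His4r in the controls, 1.29 and 1.43 in PARP1 KD, and 4.33 and 2.92 with PJ34, so it did not hold a single ratio to His4r. The study's methods do not say whether RNA with a poly(A) tail was selected. These ratios therefore need not give the relative amounts of both mRNAs in the cells. His2A summed to 66.7 and 33.2 FPKM in the controls and 42.0 and 66.9 with PJ34, which overlapped. His1 (13.0 and 12.5 FPKM in the controls, 22.2 and 30.6 with PJ34), His2B (3.02 and 1.42, then 8.0 and 13.4) and His3 (5.05 and 2.47, then 9.35 and 12) were above both controls with PJ34, at sums far below those of His4. The copies are nearly identical and reads could be assigned among them in several ways, so their values are uncertain, and reads shared with His4r were not tested.

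His2Av was at 303 and 394 FPKM with PJ34, below both controls (470 and 450), with a difference of -0.41 (SE 0.40, 95% interval -1.30 to 0.47, adjusted p 0.408). Relative to His2Av, His4r stood at 1.59 and 4.49 in the controls, 2.32 and 2.29 in PARP1 KD, and 12.8 and 13.0 with PJ34. These ratios of FPKM do not depend on library scaling, and both PJ34 values were above the other 4. They can depend on the length trend, with median transcript lengths of 610.5 bases for His4r and 1040.5 for His2Av. After that trend was removed, the changes with PJ34 were 1.54 for His4r and -0.11 for His2Av. The part of length in the ratios was not tested further. The H3.3 genes overlapped with the controls: His3.3A was at 257 and 172 FPKM (difference -0.25, 95% interval -1.14 to 0.65) and His3.3B at 635 and 934 (difference 0.47, 95% interval -0.49 to 1.44). Without PJ34 library 2 the differences were -0.60 for His2Av, 0.04 for His3.3A and 0.19 for His3.3B, none of them past the threshold.

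cid was at 10.8 and 6.14 FPKM with PJ34, below both controls (difference -0.78, SE 0.61, 95% interval -2.13 to 0.58, adjusted p 0.313), and the difference was -0.42 without PJ34 library 2. JIL-1 was at 5.02 and 0.731 FPKM, the second being by far the lowest value of this gene. Its difference was -1.59 (SE 0.75, 95% interval -3.25 to 0.07, adjusted p 0.164). It rested largely on PJ34 library 2: without that library it was -0.69 (adjusted p 0.580), and without PJ34 library 1, where 5106 of the 7308 genes passed, it was -2.49 (adjusted p 0.00104). The long JIL-1 transcripts belong to the length class with a median change of -1.44, and after the length trend was removed the change was -0.17 (adjusted p 0.612).

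**Figure D3:**
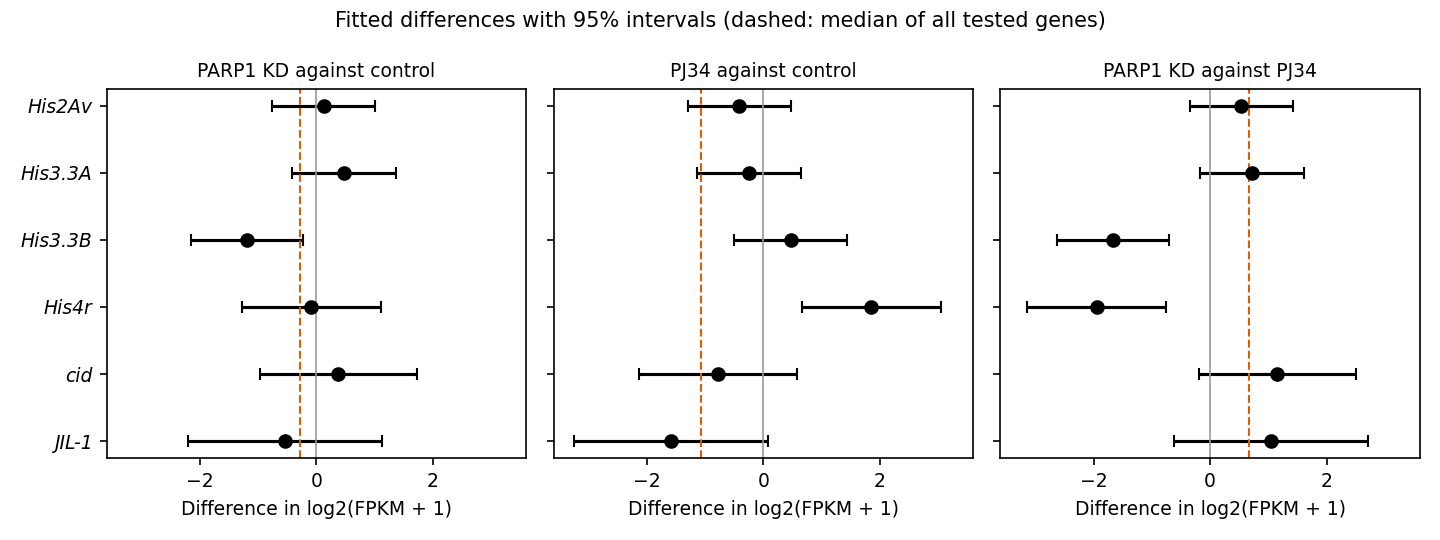
Fitted difference in log2(FPKM + 1) for each member (points) with its 95% interval (bars) in the 3 comparisons, from limma over 2 libraries a group. The dashed line is the median of all tested genes (-0.28, -1.08 and 0.67). The intervals of His4r with PJ34 against control and of His3.3B in PARP1 KD against control do not reach 0 before adjustment over all genes. Neither do those of His3.3B and His4r in PARP1 KD against PJ34.

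PARP1 KD and PJ34 were also set against each other, to ask where lowering the enzyme and inhibiting its activity differ. Both comparisons above set the treated libraries against the same controls. The difference here is taken between the treated libraries alone, but the controls entered the fit and so its estimate of the spread. For CG11042, the share of JIL-1 transcript RB (given below) and the hemocyte marker Pxn, control 1 lay with PJ34 and control 2 with PARP1 KD. Pxn was at 4.09 FPKM in control 1 and at 4.97 and 0.610 with PJ34. It was at 102 in control 2 and at 94.7 and 75.2 in PARP1 KD. In the order of the deposited samples, control 1 comes directly before the PJ34 pair and control 2 directly before the PARP1 KD pair. Whether each control was prepared with the pair after it is not known here. If it was, a treatment difference between PARP1 KD and PJ34 could not be told apart from a difference in preparation. The comparisons with control use the mean of both controls. The part of this split in the 3 comparisons was not tested. His3.3B and His4r were lower in PARP1 KD, and His2Av, His3.3A, cid and JIL-1 were higher, except that median centring put His2Av at -0.21 and His3.3A at -0.02. All 6 members had groups that did not overlap, against 61.1% of all genes, with 4 higher in PARP1 KD (43.8% of all genes) and 2 lower (17.3%). None passed the test at an adjusted p under 0.05, against 2.57% of all genes, and 2 had an unadjusted p under 0.05, against 23.7%.

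His3.3B was at 295 and 199 FPKM in PARP1 KD and 635 and 934 with PJ34, 3.18 times higher on the means. The log2 difference was -1.67 (SE 0.44, 95% interval -2.63 to -0.70, unadjusted p 0.00320, adjusted p 0.0724 by limma). With CG11042 added by length it was -1.25 (adjusted p 0.137), and with a plain sum -0.65 (adjusted p 0.362). It passed the threshold under 5 of 18 alternative settings, among them when only these 4 libraries were fitted (adjusted p 0.0230, 6.25% of genes called) and after the length trend was removed (-2.24, adjusted p 0.0360, 19.3% of genes called).

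His4r was at 1305 and 1024 FPKM in PARP1 KD against 3878 and 5116 with PJ34, 3.86 times higher on the means. The log2 difference was -1.94 (SE 0.54, 95% interval -3.14 to -0.75, unadjusted p 0.00449, adjusted p 0.0815). It passed the threshold under 7 of 16 alternative settings, among them the fit of these 4 libraries (adjusted p 0.00815) and the fit with the length trend removed (-1.78, adjusted p 0.0410). Over all alternatives its adjusted p ran from 0.00128 to 0.548 and its sign did not change. The replication-dependent His4 copies were the only genes of the lists of related genes, cell markers aside, to pass. All 17 tested were lower in PARP1 KD, with changes of -2.71 to -1.93, and 14 passed, beside 2.57% of all genes. The copies are nearly identical and may share reads, so these are not 14 separate results.

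The other members differed less. The difference of cid was 1.16 (95% interval -0.20 to 2.51, adjusted p 0.260), of JIL-1 1.05 (-0.61 to 2.71, adjusted p 0.368), of His3.3A 0.72 (-0.17 to 1.62, adjusted p 0.276) and of His2Av 0.54 (-0.35 to 1.42, adjusted p 0.384). The median over all genes was 0.67, so the last pair were near that shift. Without PJ34 library 2 the difference of JIL-1 was 0.15, of cid 0.80, of His3.3B -1.39 (adjusted p 0.0641) and of His4r -1.74 (adjusted p 0.0415). Without PJ34 library 1, 5 members passed, all but His2Av, as did 4222 of the 7308 genes. With only the 4 libraries of a comparison, 0.315%, 0.205% and 6.25% of genes passed in the 3 comparisons. As transcript rows in place of gene sums, 0.153%, 0.0511% and 2.74% of rows passed. Among member rows, His4r RA (-2.65, adjusted p 0.0336) and RB (-2.72, adjusted p 0.0430) passed in PARP1 KD against PJ34, whereas the more abundant RC did not (-1.64, adjusted p 0.146).

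**Figure D4:**
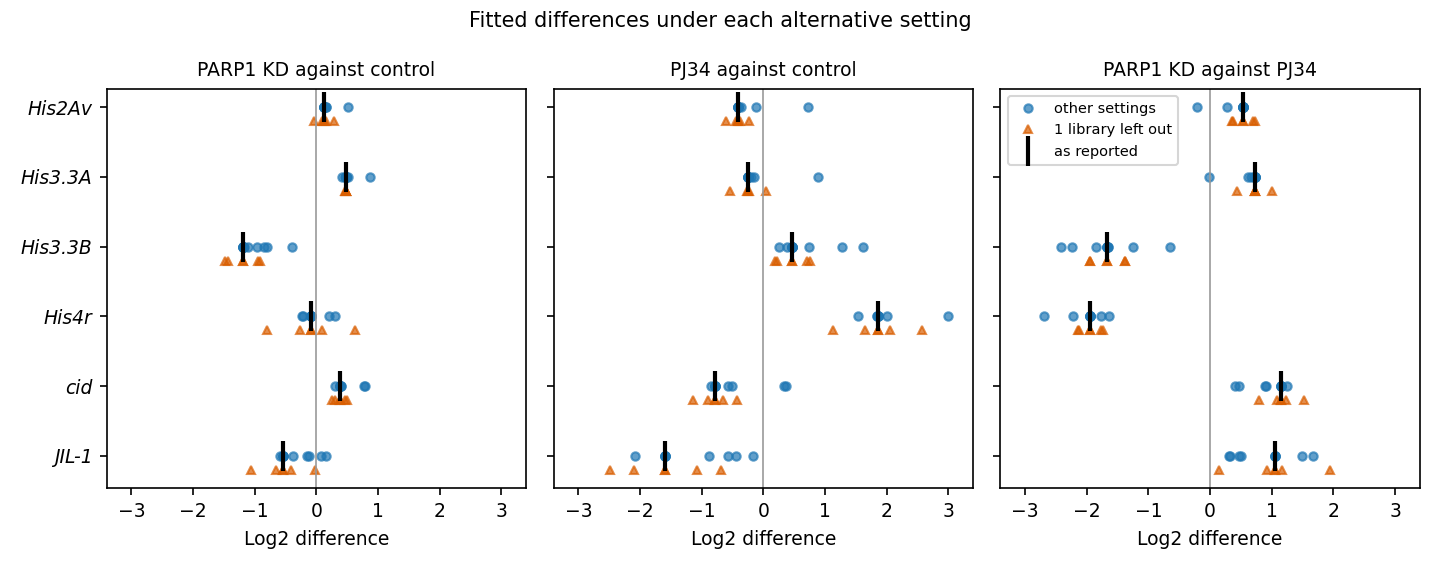
Fitted log2 difference of each member in the 3 comparisons as reported (black bars), under other settings (circles) and with 1 library left out (triangles). The differences of His3.3B in PARP1 KD stay below 0 and those of His4r with PJ34 stay above 0 under every setting plotted, whereas His4r in PARP1 KD falls on both sides of 0.

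The annotated transcripts of a member had coding sequences of the same length and differed in their untranslated ends, as far as the current annotation holds them. His2Av and cid had a single transcript row each. His3.3A was all RA, its RB being listed near 0 in every library. His3.3B was 98.4% to 99.6% RA, with RB at no more than 1.40%. The RB share was 1.40% and 1.28% with PJ34, against 0.336% and 0.976% in the controls and 0.265% and 0.405% in PARP1 KD.

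His4r used 3 transcripts, of which RC led in every library. RC gave 56.9% and 69.2% of the gene's FPKM in the controls, 74.9% and 79.2% in PARP1 KD, and 60.7% and 63.6% with PJ34. RA gave most of the rest, from 17.7% in a PARP1 KD library to 37.6% in control 1. The RC share was higher in both PARP1 KD libraries than in the other 4. The test of usage (limma diffSplice, over 4201 transcripts) did not call it, at a relative log2 change of 0.87 against control (adjusted p 0.610) and 1.05 against PJ34 (adjusted p 0.409). In FPKM, each of the 3 rows was higher in both PJ34 libraries than in the other 4, RC being at 2354 and 3255 with PJ34 and at no more than 1399 elsewhere.

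JIL-1 had RA and RB, which both encode 1207 residues. RB gave 63.4% and 7.91% of FPKM in the controls, 4.69% and 7.23% in PARP1 KD, and 59.8% and 55.6% with PJ34. The controls were thus as far apart as the treated groups: control 1 lay with the PJ34 libraries and control 2 with PARP1 KD. The usage test gave -1.53 for RB in PARP1 KD against control (adjusted p 0.557), 0.96 with PJ34 against control (adjusted p 0.9998) and -2.50 in PARP1 KD against PJ34 (unadjusted p 0.0663, adjusted p 0.229). No member transcript was called for changed usage in any comparison, against 1.71%, 0% and 4.21% of transcripts.

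**Figure D5:**
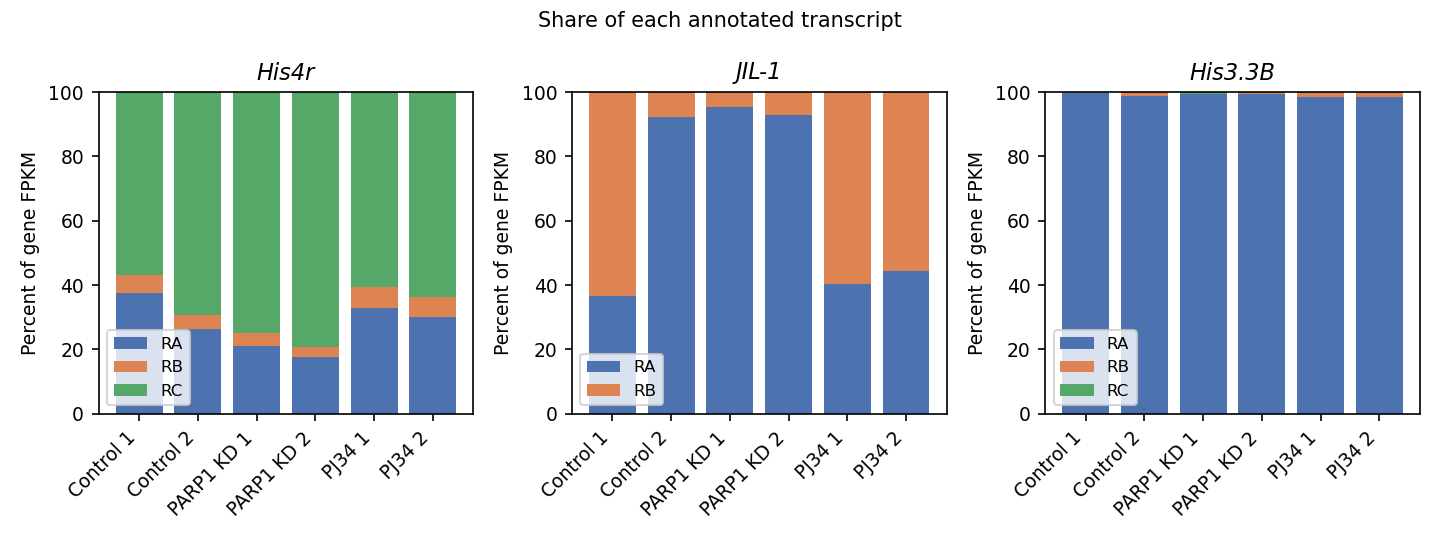
Share of each annotated transcript in the FPKM of His4r, JIL-1 and His3.3B (percent, vertical axes) in the 6 libraries. Control 1 and both PJ34 libraries carry 55.6% or more JIL-1 RB, and control 2 and both PARP1 KD libraries 7.91% or less.

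Genes that act with the members were read from lists. In PARP1 KD against control none of them passed the test, and none had an unadjusted p under 0.05. With PJ34 against control none passed, although 5 of 15 genes of H2Av exchange (the Tip60 and Domino complexes), 6 of 12 chaperones of H3, H3.3 and H4, 3 of 10 centromere genes, 4 of 10 genes around JIL-1, 2 of 9 genes of histone mRNA processing and 17 of 40 tested replication-dependent histone genes had an unadjusted p under 0.05, beside 31.1% of all genes. Their median changes were -1.23, -1.48, -0.45, -1.44, -1.44 and 0.49, beside -1.08 over all genes. After the length trend of each library was removed the medians were -0.32, -0.56, 0.15, -0.20, -0.04 and 0.36, the sign of the centromere genes having turned. The 17 histone genes with an unadjusted p under 0.05 (limma) were all His4 copies, with 0 of 20 His2A and 0 of 3 His1 copies among them. The His4 copies are nearly identical and may share reads, so they are not 17 separate results.

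The named genes of the lists with the smallest p gave the following values. For H2Av exchange, E(Pc), a subunit of the Tip60 complex, was at -1.83 (adjusted p 0.156) with PJ34, and MrgBP at 1.09 and Bap55 at 1.33 in PARP1 KD against PJ34. Nipped-A, also of the Tip60 complex, was listed at 0 FPKM in PJ34 library 1 and at 8.04 in library 2, against 11.8 and 15.4 in the controls, and its change of -2.27 (adjusted p 0.157) rests on that 0. Among chaperones, the nucleoplasmin Nlp was at -1.28 and the H3-H4 binding subunit Caf1-55 at -2.15 with PJ34. In PARP1 KD against PJ34, Nlp was at 1.71 (adjusted p 0.0735), followed by the FACT subunit Ssrp (adjusted p 0.144). None of these passed.

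Around cid, the kinetochore genes Nnf1a and Mis12 were at 1.41 (adjusted p 0.131) and 1.19 with PJ34. Of the 10 centromere genes tested, 4 were higher and 4 lower than both controls in both PJ34 libraries. The 4 higher had transcripts of 682 to 968 bases and the 4 lower of 1290 to 4567.5 bases (medians per gene). Cenp-C (-1.63, adjusted p 0.166) and cal1 (-1.22, adjusted p 0.213), which act with cid at the centromere and were named after their values were seen, were among the lower and had the sign of cid (-0.78). The part of transcript length in these signs was not tested. Mis12 and Spc25 were at -1.32 and -1.14 in PARP1 KD against PJ34. Around JIL-1, the 14-3-3 proteins, which bind phosphorylated H3, were at -1.39 (14-3-3zeta, adjusted p 0.131) and -1.43 (14-3-3epsilon) with PJ34, and aurB, the mitotic kinase of the same H3 serine, at 2.30 (adjusted p 0.108) in PARP1 KD against PJ34. Slbp, which binds the stem-loop of replication-dependent histone mRNA, was at -1.55 (adjusted p 0.155) and the endonuclease Cpsf73 at -1.65 with PJ34. Slbp was at 1.43 and the U7 snRNP protein Lsm10 at -1.24 in PARP1 KD against PJ34.

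In PARP1 KD against control the genes with the smallest p were Nnf1a (0.41) and Nuf2 (0.24) of the kinetochore, Nipped-A and MrgBP (0.44) of H2Av exchange, XNP and Dek (-0.71) among chaperones, mute (-0.75) and Lsm10 (-0.35), aurB (0.69) and Jasper (-0.55) around JIL-1, and the histone copies His4:CG33879 (-0.64) and His4:CG33903 (-0.59). Their unadjusted p was 0.259 or more.

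The pattern over the 6 libraries differed between the members. By Pearson's r of log2(FPKM + 1), given as a description over 6 libraries that share their depth and length trends, the nearest genes to His4r were tut (r = 0.999) and FucTC (0.997), both also highest with PJ34. Nearest to His3.3B were Bet3 (0.995) and CG1105 (0.995), and to His3.3A CG32650 (0.987) and CG11590 (0.981). His2Av was nearest to or (0.986) and Ldaf1 (0.971), cid to SdhD (0.998) and CG40600 (0.998), and JIL-1 to Aef1 (0.999) and mfrn (0.999).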

How the data were processed

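Per the labels and the study's methods, the authors mapped paired-end reads to dm3 with TopHat2 2.0.10 and Bowtie2 2.1.0.0, and the deposited FPKM values came from Cufflinks 2.1.1 and Cuffdiff, guided by FlyBase transcripts, with 1 row per transcript. TopHat2 was run at its defaults apart from the number of processors. Whether the library kit kept strand, and how multiply mapped reads were weighted in the FPKM values, were not given in the sources used here. Depth was estimated from the steps between low FPKM values, at 0.885 to 1.10 times that of control 1.

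Transcript rows were summed by gene, a choice made once the table was seen to hold transcripts. Genes whose mean FPKM reached 1 were fitted as log2(FPKM + 1) with limma 3.58.1 (R 4.3.3; eBayes with trend) over all 6 libraries. P-values were two-sided and adjusted by Benjamini-Hochberg over 7308 genes, with a threshold of 0.05. Differences on this scale understate changes of low genes. Transcript use was tested with diffSplice. The steps were tested on simulated data. Strands, transcript lengths and protein lengths came from the BDGP6 annotation (99.4% of tested genes had a length), and loci from dm3. His4r models differ between the builds. Python 3.11.15 drew the plots.

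The members and lists were chosen with earlier results of these data known. Named were all members, Parp1, list genes past the test and otherwise the 2 per list and comparison with the smallest p, and 2 genes per member by likeness. The Su(var)3-9 and nos entries of the lists were not found under those names. Alternatives were other pseudocounts, filters, scalings, a length correction, no trend, transcript rows, 4 libraries only and each library left out.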

Additional observations from a re-analysis of the deposited data

How the results depend on the processing

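With 2 libraries a group and a difference in dose within each treated pair, small changes could not be called. No paired analysis was possible because the labels number both libraries of each treatment replicate 1. No member was called in PARP1 KD against control under any setting, nor any member transcript by the usage test in any comparison. In PJ34 against control 0 to 2 members were called with 1 library left out (1 without control 2, with 365 of 7308 genes, and 2 without PJ34 library 1, with 5106). In PARP1 KD against PJ34 the number was 0 to 5 (5 without PJ34 library 1, with 4222 genes, 2 without either control, 1 without PJ34 library 2), 1 with quantile normalization, 3 with length correction, 1 with transcript rows and 2 with only the 4 libraries of the comparison. Median centring, which sets the median gene near 0, reversed His4r in PARP1 KD (0.30), His2Av (0.73), His3.3A (0.89) and cid (0.36) with PJ34, and His2Av (-0.21) and His3.3A (-0.024) in PARP1 KD against PJ34. Quantile normalization reversed cid with PJ34 (0.33), length correction JIL-1 in PARP1 KD (0.15), and the most abundant transcript row JIL-1 (RA, 0.076) and His4r (RC, 0.20) in PARP1 KD, where JIL-1 RB (-1.46) and His4r RA (-0.79) and RB (-0.55) kept the sign. With 1 library left out, the change ran from -0.042 to 0.29 for His2Av and from -0.81 to 0.63 for His4r in PARP1 KD, and from -0.53 to 0.040 for His3.3A with PJ34. None of these reversed changes had been called, and the cause was not tested. Over all genes, 47 were called in PJ34 against control and 188 in PARP1 KD against PJ34. These counts became 27 and 69 with a pseudocount of 0.1, 76 and 284 with 5, 164 and 555 with quantile normalization, 61 and 117 with median centring, 245 and 1402 with length correction, 7 and 6 without a filter, 34 and 117 at a mean FPKM of 5, 28 and 56 without the trend, 5 and 268 over transcript rows, 15 and 457 with 4 libraries, and 9 to 5106 and 1 to 4222 with 1 library left out. In PARP1 KD against control 0 genes were called as reported (209 at an unadjusted p under 0.05), 15 transcript rows, 23 genes with 4 libraries and 0 to 72 with 1 library left out.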
